A study of Mus musculus with 8 samples.

Results

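The arrays of a loop design that set one muscle's un-amplified RNA against the other muscle's amplified RNA were analysed; they were chosen by their titles and are 2 of the 8 arrays of the series. The mice were of the CD-1 strain and 4 to 5 weeks old, and the labels name no allele or treatment. The slow muscle was the soleus and the fast muscle the flexor digitorum brevis (FDB), a small muscle of the foot. For un-amplified samples, 10 micrograms of total RNA were reverse transcribed with oligo(dT) and amino allyl nucleotides, whereas amplified RNA was first multiplied with an amplification kit and then coupled to dye. On the first crossing array Cy3 held slow un-amplified RNA and Cy5 fast amplified RNA. On the second crossing array Cy3 held fast un-amplified RNA and Cy5 slow amplified RNA. The number of animals is not stated in the labels, so nothing below measures the spread between animals.

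Skeletal muscle fibres differ in the isoforms of the contractile proteins they make. Slow fibres use the slow myosin heavy chain and the slow troponins, take up oxygen through much myoglobin and work for long periods, while fast fibres use fast myosin heavy chains and fast troponins and lower their calcium quickly with the help of parvalbumin. The mouse soleus is a mixed muscle that also holds fast fibres. RNA of a whole muscle was measured, so fewer fibres of a type and less RNA per fibre cannot be told apart.

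Because muscle changed sides between the arrays while amplified RNA was in Cy5 on both, the difference between the arrays' log2 Cy5/Cy3 ratios divided by 2 gives log2 fast over slow (called the muscle difference here), and their mean gives what both arrays share, amplification together with dye (called the shared ratio). The array held 22 features with 6 spots each, 20 of them with a gene name. Of 132 probe spots, 116 were usable in both channels on the first array and 100 on the second, and 21 features had a usable spot on both. CAMTA1 (a calmodulin-binding transcription activator) had 1 usable spot on the first array, at -2.43, and 0 on the second, so it has no muscle difference. Ratios are log2 values centred on the median feature of each array, and errors are SD or SE between the spots of an array, which measure technical spread only.

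The first array was the less even of the pair. A typical feature (the median one) had an SD between its spots of 0.353 on it and 0.142 on the second array. Spots in upper rows of its 9-row grid read higher than spots of the same feature in lower rows, from 0.41 above the mean in row 2 to 0.53 below it in row 9 (row effect -0.53). On the second array row effects lay between -0.07 and 0.11. With the row as a term, chosen after seeing the data, the muscle difference was 2.50 for Myh1, 2.66 for Pvalb and -2.96 for Myh7, close to the values without it. Myh6 moved from -1.21 to -0.97 and so fell under 2-fold. Its usable spots lay in rows 8 and 9 on the first array and in rows 1 to 3 on the second.

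**Figure D1:**
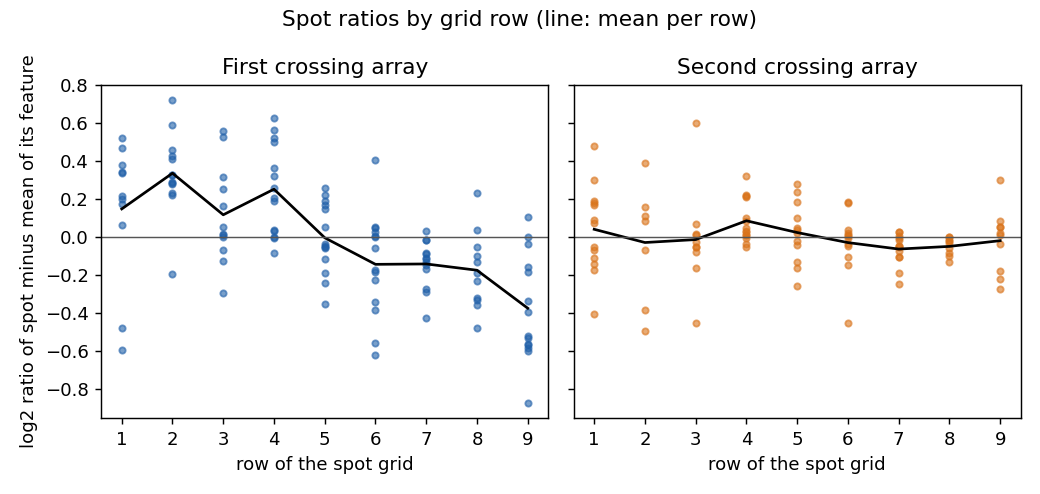
Log2 ratio of each usable spot minus the mean of its feature (y axis) against the row of the spot grid (x axis) on each crossing array; points are spots and lines are row means. The first array slopes from upper to lower rows, and the second is level.

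Fast muscle was at least 2-fold higher than slow muscle in 2 of the 21 features (9.52%), Pvalb and Myh1, and at least 2-fold lower in 7 (33.3%), namely Myh7, Ldhb, Tnnc1, Acta1, Myh4, Myh6 and Tnni1. These folds rest on 1 ratio per array and carry no test. The median muscle difference over all 21 features was -0.33. In 9 features the arrays had ratios of opposite sign, with fast muscle higher in 5 and lower in 4. In 11 features both ratios had the same sign, and Ppp3cb was the median feature of the second array, so that its ratio there was 0.

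**Figure D2:**
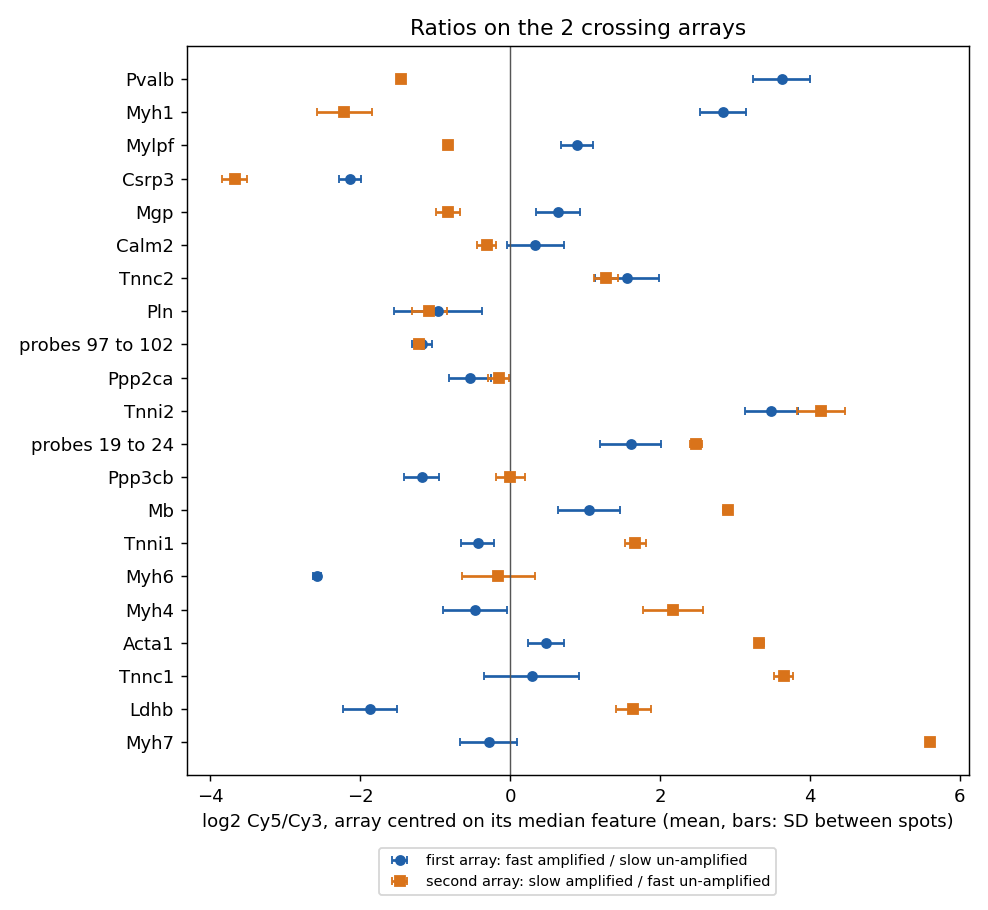
Centred log2 Cy5/Cy3 (x axis) of each feature (y axis, ordered by muscle difference) on the first array (circles) and the second array (squares), as the mean of its usable spots with bars for the SD between spots. Myh1 and Pvalb at one end and Myh7 and Ldhb at the other have ratios of opposite sign on the arrays, while Tnni2 is far above 0 and Csrp3 far below 0 on both.

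Among the fast contractile genes, Myh1 encodes the fast myosin heavy chain of type IIx fibres. Its log2 ratio was 2.83 ± 0.31 (SD, n = 5 spots) on the first array and -2.21 ± 0.36 (SD, n = 5 spots) on the second. Fast muscle was thus the brighter side on both arrays, and the spots of the arrays did not overlap. The muscle difference was 2.52 (SE from spots 0.11), a 5.75-fold higher level in fast muscle.

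Pvalb encodes parvalbumin, the calcium buffer that lets fast fibres relax quickly. It read 3.62 ± 0.38 (SD, n = 6 spots) on the first array and -1.45 ± 0.04 (SD, n = 4 spots) on the second. Its muscle difference of 2.54 (SE from spots 0.08), or 5.80-fold, was next to that of Myh1. The 250 bases before the annotated start of both genes, from RefSeq on GRCm38.p6, are shown because these are the features furthest on the fast side. Pvalb had 2 promoter entries, and the window shown is that at the annotated boundary of the gene. Motifs of its other entry are not given. Myh1 lies at chr11:67199852-67200101 on the plus strand and Pvalb at chr15:78206401-78206650 on the minus strand, each printed along its gene. Capitals mark matches, on either strand, to the E-box CANNTG, the M-CAT motif CATTCC and the TATA motif TATAAA, none of which overlapped another.
Myh1: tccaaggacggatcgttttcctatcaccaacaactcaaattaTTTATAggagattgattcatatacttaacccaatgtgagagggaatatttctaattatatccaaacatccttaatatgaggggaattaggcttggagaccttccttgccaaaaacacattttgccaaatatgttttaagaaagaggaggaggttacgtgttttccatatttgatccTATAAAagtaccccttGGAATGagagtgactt
Pvalb: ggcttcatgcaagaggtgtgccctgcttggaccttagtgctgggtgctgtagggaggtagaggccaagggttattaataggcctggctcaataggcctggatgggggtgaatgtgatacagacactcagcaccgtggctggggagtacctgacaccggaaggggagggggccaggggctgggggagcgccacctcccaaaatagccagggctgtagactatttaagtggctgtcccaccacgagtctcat

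The Myh1 window held 2 matches to TATAAA, the nearer 32 bases before the start, and 1 match to CATTCC; the Pvalb window held none of these letters. Over 32851 RefSeq promoter windows of that length, 66.2% held CANNTG, 12.6% CATTCC and 12.4% TATAAA, so a match to CANNTG is common and the others less so.

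The other fast contractile genes were mixed. Of 9 genes on the list of fast contractile genes 5 were on the array, 3 of them with a muscle difference above 0 and 2 below, and the median was 0.14 against -0.33 over all features. Mylpf, the fast regulatory light chain, read 0.89 ± 0.22 (SD, n = 6 spots) and -0.83 ± 0.05 (SD, n = 6 spots), which gives 0.86 or 1.81-fold higher in fast muscle. Both arrays placed Mylpf on the fast side, with the second reading the mirror image of the first. Tnnc2, fast troponin C, read 1.56 and 1.28, and its muscle difference of 0.14 was close to its SE from spots of 0.09. Tnni2, fast troponin I, read 3.48 ± 0.35 (SD, n = 6 spots) and 4.15 ± 0.32 (SD, n = 4 spots). The amplified side was far brighter on both arrays whichever muscle it held, with a muscle difference of -0.33. That value rests on both arrays: with no dye term it was -2.18 without the first array and 1.52 without the second, the widest range of the 21 features.

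Myh4, the heavy chain of the fastest type IIb fibres, lay on the slow side. It read -0.47 ± 0.43 (SD, n = 6 spots) on the first array and 2.17 ± 0.40 (SD, n = 5 spots) on the second, a muscle difference of -1.32 (SE from spots 0.13). Myh4 was dim: its Cy3 integral was 2.57 times the Cy3 background integral of its spots on the first array and 1.44 times on the second.

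All 3 slow contractile genes on the array, of 8 on the list, were at least 2-fold lower in fast muscle, against 33.3% of all features, and their median muscle difference was -1.68. Myh7, the slow myosin heavy chain of type I fibres, read -0.28 ± 0.38 (SD, n = 6 spots) on the first array and 5.60 ± 0.04 (SD, n = 4 spots) on the second. On the second array slow amplified RNA gave a Cy5 integral of 4619118 against a Cy3 integral of 156209 for fast un-amplified RNA. That Cy3 value was 1.54 times its background. The muscle difference was -2.94 (SE from spots 0.08), so fast muscle was 7.68-fold lower, furthest from 0 of all 21 features.

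Tnnc1, slow troponin C, read 0.28 ± 0.63 (SD, n = 6 spots) and 3.65 ± 0.13 (SD, n = 5 spots), which gives -1.68 (SE from spots 0.13) or 3.21-fold lower in fast muscle. Both ratios were above 0, so the order of the muscles showed as a higher ratio on the second array. Tnni1, slow troponin I, read -0.44 ± 0.22 (SD, n = 6 spots) and 1.67 ± 0.14 (SD, n = 6 spots), or -1.05. Tnni1 was the closest to the 2-fold limit and fell short of it without centring (-0.86), after loess within each array (-0.41) and without the second array (-0.52). The windows of Myh7 (chr14:54994627-54994876, minus strand) and Tnnc1 (chr14:31208062-31208311, plus strand) are shown with the same capitals, since these were the slow contractile genes with the larger differences. Myh7 also had 2 promoter entries, and its window was chosen as for Pvalb.
Myh7: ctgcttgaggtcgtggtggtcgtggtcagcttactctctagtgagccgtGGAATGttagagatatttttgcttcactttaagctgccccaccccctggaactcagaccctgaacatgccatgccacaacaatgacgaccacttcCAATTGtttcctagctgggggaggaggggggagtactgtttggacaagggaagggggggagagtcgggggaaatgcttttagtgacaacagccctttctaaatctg
Tnnc1: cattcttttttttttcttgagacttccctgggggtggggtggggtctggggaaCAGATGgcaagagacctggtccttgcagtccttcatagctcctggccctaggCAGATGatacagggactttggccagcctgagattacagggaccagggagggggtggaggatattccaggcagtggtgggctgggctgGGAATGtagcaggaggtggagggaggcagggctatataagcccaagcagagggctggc

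Each of these windows held 1 match to CATTCC, 201 bases before the start in Myh7 and 58 in Tnnc1. Myh7 held 1 match to CANNTG and Tnnc1 held 2, and neither held TATAAA.

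Myh6, the alpha heavy chain of the heart and the cardiac marker on the array, read -2.57 ± 0.05 (SD, n = 2 spots) and -0.16 ± 0.49 (SD, n = 3 spots), a muscle difference of -1.21. Its Cy3 integral on the second array was 0.743 times the background integral, so this value rests on few and dim spots. Those spots lay in different grid rows on the arrays, and with the row as a term the value was -0.97. The other cardiac markers of the list, Actc1 and Nppa, were not on the array.

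Calcium handling and signalling genes other than Pvalb gave muscle differences under 2-fold. Pln, the phospholamban that restrains the calcium pump of slow and cardiac muscle, read -0.96 ± 0.59 (SD, n = 4 spots) and -1.08 ± 0.24 (SD, n = 5 spots). Its muscle difference of 0.06 was smaller than its SE from spots of 0.16, and its Cy3 integral was only 0.956 and 1.03 times the background integral. Of the 7 genes on the calcium signalling list 4 were on the array and 3 measured on both arrays, and 0 of these reached 2-fold, against 9.52% of all features higher and 33.3% lower. Ppp3cb, a catalytic subunit of calcineurin, was at -0.59, Ppp2ca, a catalytic subunit of protein phosphatase 2A, at -0.19 and Calm2, calmodulin, at 0.33. Ppp3cb was at -1.21 without the first array and at 0.03 without the second.

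Both oxidative genes on the array, Ldhb and Mb, had muscle differences below 0. Ldhb, the lactate dehydrogenase subunit of oxidative tissues, read -1.87 ± 0.36 (SD, n = 5 spots) and 1.64 ± 0.24 (SD, n = 3 spots), so slow muscle was the brighter side on both arrays. Its muscle difference was -1.76 (SE from spots 0.11), or 3.38-fold lower in fast muscle. Mb, myoglobin, read 1.05 ± 0.41 (SD, n = 6 spots) and 2.90 ± 0.06 (SD, n = 6 spots), giving -0.93, just short of 2-fold. The Mb value was -0.03 after loess, -1.91 without the first array and 0.06 without the second. None of the 3 glycolytic genes of the list was on the array.

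The remaining features were of the cytoskeleton, the matrix or without a name. Acta1, skeletal alpha actin, read 0.48 ± 0.24 (SD, n = 6 spots) and 3.32 ± 0.06 (SD, n = 4 spots), a muscle difference of -1.42 or 2.68-fold lower in fast muscle. The Acta1 value depended on the processing: it was -0.69 after loess within each array and -0.03 with marked spots kept. Keeping marked spots brings in replaced integrals, as the closing section describes. Csrp3, muscle LIM protein of the Z-disc, read -2.14 ± 0.15 (SD, n = 5 spots) and -3.68 ± 0.17 (SD, n = 6 spots), or 0.77. Mgp, matrix Gla protein and the connective tissue marker on the array, read 0.64 and -0.83, or 0.73. The unnamed features gave -0.44 (probes 19 to 24) and 0.02 (probes 97 to 102). No marker of endothelium, blood, nerve, fat or immune cells was on the array, so their part in these results was not tested.

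The crossing arrays alone leave no residual spread, so a test needed the 2 loop arrays that compare amplified with un-amplified RNA within a muscle. In limma fitted on the 4 loop arrays, with dye, amplification and muscle as terms, the muscle estimate of each feature equals its muscle difference, and the single residual degree of freedom is the gap between the muscles in their amplification effect, not the spread between replicates. Of 21 features, 2 passed an adjusted p of 0.05 as higher in fast muscle (9.52%) and 1 as lower (4.76%). Myh7 fell by 2.94 on the log2 scale (SE 0.73, limma adjusted p = 0.0128). Myh1 rose by 2.52 and Pvalb by 2.54 (SE 0.73, limma adjusted p = 0.0166 for each).

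Ldhb and Tnnc1 came next (unadjusted p = 0.0255 and 0.0316 in limma) but their adjusted p was 0.133. All features share 1 pooled residual SD of 1.03 in this test. With each feature's own variance 0 of 21 passed and 1 had an unadjusted p under 0.05 in the linear model. Leaving out either crossing array, with no dye term, also left 0 calls, and the Myh7 estimate was then -3.72 without the first array and -2.17 without the second. Myh1 was at 1.44 and 3.61 in these fits, and Pvalb at 2.20 and 2.87.

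With the within-muscle arrays, the muscle difference can be split into its value in amplified and in un-amplified RNA, of which it is the mean. For Pvalb it was 3.76 in amplified RNA and 1.32 in un-amplified RNA, and for Myh1 3.24 and 1.81, so fast muscle was higher in both kinds. Myh7 was at -3.98 and -1.90, lower in fast muscle in both. Ldhb differed most between kinds, at -3.32 in amplified and -0.20 in un-amplified RNA. Tnni1 was at -2.26 and 0.15, lower in fast muscle in amplified RNA and near 0 in un-amplified RNA.

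Ppp3cb had values of opposite sign, 0.69 in amplified and -1.87 in un-amplified RNA, and the muscle difference averages over them. The signs also differed for Pln (-0.74 and 0.85), probes 19 to 24 (-1.02 and 0.14), probes 97 to 102 (-0.25 and 0.29), Tnnc2 (0.29 and -0.01) and, as given above, Tnni1. Csrp3 (0.81 and 0.73) and Mylpf (0.98 and 0.74) were much alike in both kinds. Tnnc1 (-1.96 and -1.41) kept its side, though several other features had a smaller gap between kinds, such as Mgp (0.60 and 0.87). These values come from single arrays and were not tested against each other.

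**Figure D3:**
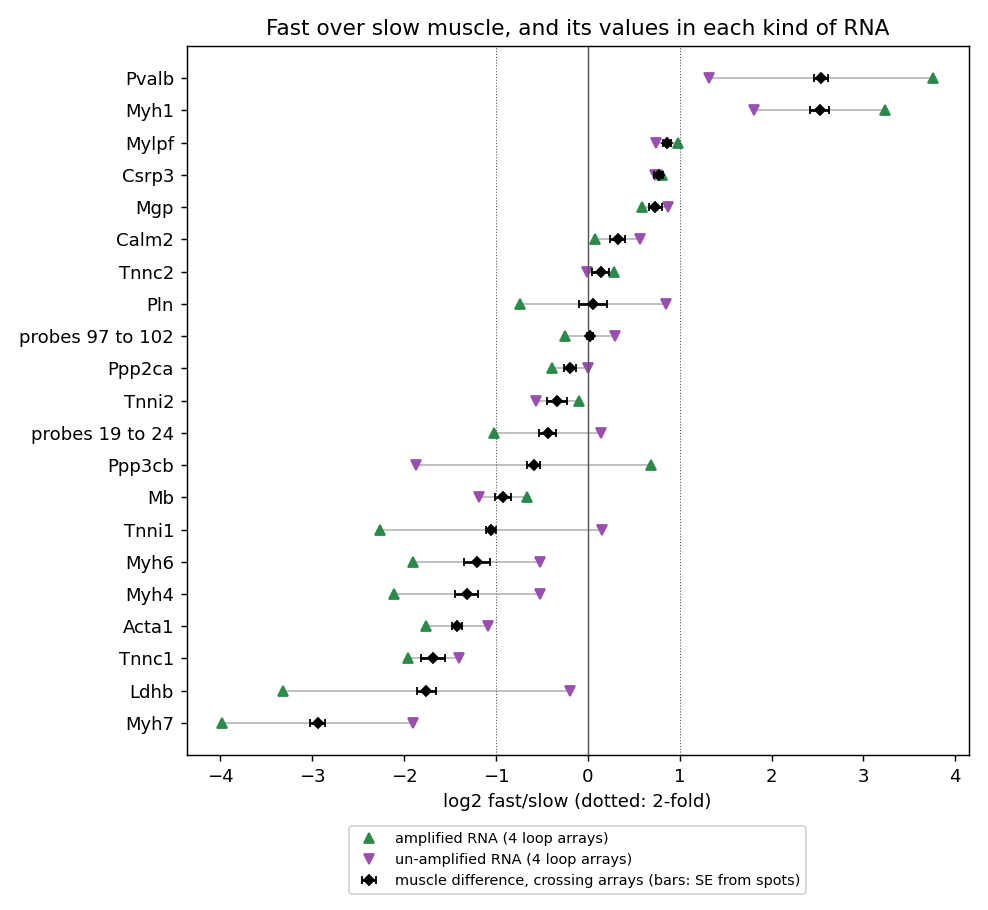
Log2 fast over slow (x axis) of each feature (y axis) as the muscle difference of the crossing arrays (diamonds, bars for the SE from spots) and split into amplified RNA (upward triangles) and un-amplified RNA (downward triangles) with all 4 loop arrays; dotted lines mark 2-fold. Ldhb reaches from -3.32 to -0.20 and Pvalb from 1.32 to 3.76, while Csrp3 and Mylpf keep nearly the same value.

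The part of the ratios that both arrays share was of a size with the muscle part. The shared ratio was larger in size than the muscle difference in 11 of 21 features and smaller in 9, and its median size was 1.08 against 0.86. It was at least 2-fold above 0 in 8 features (38.1%) and at least 2-fold below in 4 (19%). Tnni2 was furthest above, with a shared ratio of 3.81 or 14.1-fold, followed by Myh7 at 2.66 and the feature of probes 19 to 24 at 2.04. Csrp3 was furthest below, at -2.91 or 7.50-fold. Mylpf (0.03), Calm2 (0.01), Mgp (-0.10) and Ldhb (-0.11) were near 0.

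On 2 arrays amplification and dye cannot be told apart in this ratio. The dye term of the 4-array fit was above 0 in 19 of 21 features, with a median of 0.27, and was largest for Tnni2 at 0.92. Since each array was centred on its median feature, a dye bias common to all features is not in this term. Its sign is relative to those median features. The dye term passed the test in 0 features (0%) in limma, where the lowest adjusted p was 0.976 and 0 features had an unadjusted p under 0.05. The linear model with own variances gave 0 on both counts. The amplification term of the same fit passed in 6 of 21 features as higher (28.6%) and in 3 as lower (14.3%) in amplified RNA. It was largest for Csrp3 at -2.95 and Tnni2 at 2.89 (limma adjusted p = 0.000156 for each), the features at both ends of the shared ratio. Its count of 9 was 1 without either crossing array and 0 with own variances. Across the 21 features the ratios of the arrays had a Pearson's r of 0.17, given as a description, since the features share the arrays and their dyes.

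**Figure D4:**
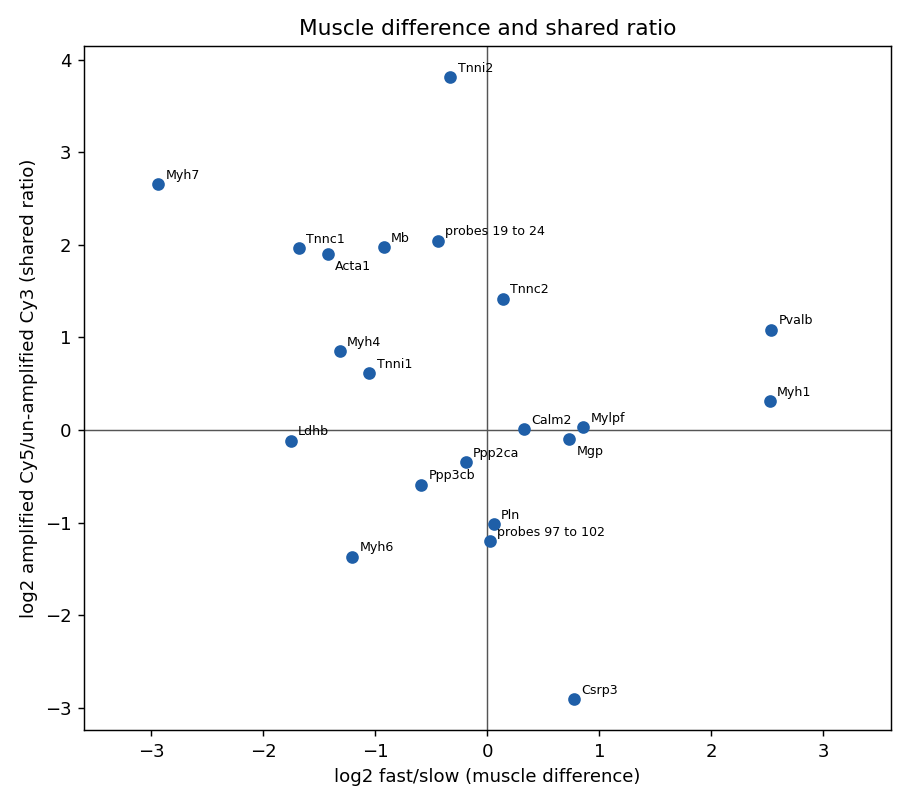
Shared ratio (y axis, log2 amplified Cy5 over un-amplified Cy3) against muscle difference (x axis, log2 fast over slow), 1 point per feature. Pvalb and Myh1 lie far to the right with shared ratios of 1.08 and 0.31, Myh7 lies to the left at 2.66, and Tnni2 and Csrp3 lie near the middle with shared ratios of 3.81 and -2.91.

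The separate dye-swap experiment compared the same muscles on 4 arrays. Its labels are in doubt for the kind of RNA: the values that the series table gives for the arrays labelled amplified followed the scanner files of those labelled un-amplified (Pearson's r 0.998 over 114 and 120 spots) rather than their own (r 0.703 and 0.603). The pairs are named here by the labels of their scanner files and enter the test alike. All 3 ratios (crossing arrays and both pairs) existed for 13 features, and 8 of these had the same sign in all. The features with mixed signs were Tnni1, Ppp3cb, Mgp and both unnamed features. Among the 8, pair values of Acta1, Mb and Csrp3 average arrays on opposite sides of 0. The Mb arrays labelled un-amplified were at -1.15 and 0.91. Csrp3 was at -0.06 and 0.28 on the arrays labelled amplified and at 0.54 and -0.48 on those labelled un-amplified. Tnni1 was at -1.05 on the crossing arrays, 0.02 in the pair labelled amplified and -1.07 in the pair labelled un-amplified. Ppp3cb was at -0.59, -0.08 and 0.53 in the same order.

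Myh1 was at 2.52 on the crossing arrays, 0.77 in the pair labelled amplified and 2.02 in the pair labelled un-amplified. Pvalb was at 2.54, 0.84 and 3.64, so the crossing value lay between the pairs. Tnnc1 was at -1.68, -0.96 and -1.48, and Acta1 at -1.42, -0.79 and -0.88. The last Acta1 value is the mean of arrays on opposite sides of 0, at -2.17 and 0.42. Myh7 (-2.94 and -3.19) and Ldhb (-1.76 and -2.22) had a pair value only in the pair labelled un-amplified, on the same side. On the single array labelled amplified that measured them they were at -1.0 and -0.59, nearer to 0.

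In limma on these 3 ratios the crossing value differed from the dye-swap mean in 0 of 13 features (0%), with 0 at an unadjusted p under 0.05 and a lowest adjusted p of 0.725; with own variances both counts were 0 as well. The spread behind this test is the gap between the dye-swap pairs, which differ in their labelled RNA, and not replicate error, since the crossing arrays give 1 value per feature. The differences with the lowest p were 1.13 for Myh1 (95% interval -0.35 to 2.62) and 1.13 for Mgp (95% interval -0.34 to 2.60). For Pvalb the difference was 0.30 (95% interval -1.23 to 1.83). These intervals use a spread pooled almost wholly over the 13 features, with an SE of 0.71 for Pvalb. The Pvalb pairs themselves lay far apart, at 0.84 and 3.64, so its interval understates its own spread. These intervals are wide, so the experiments are not shown to give the same values.

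**Figure D5:**
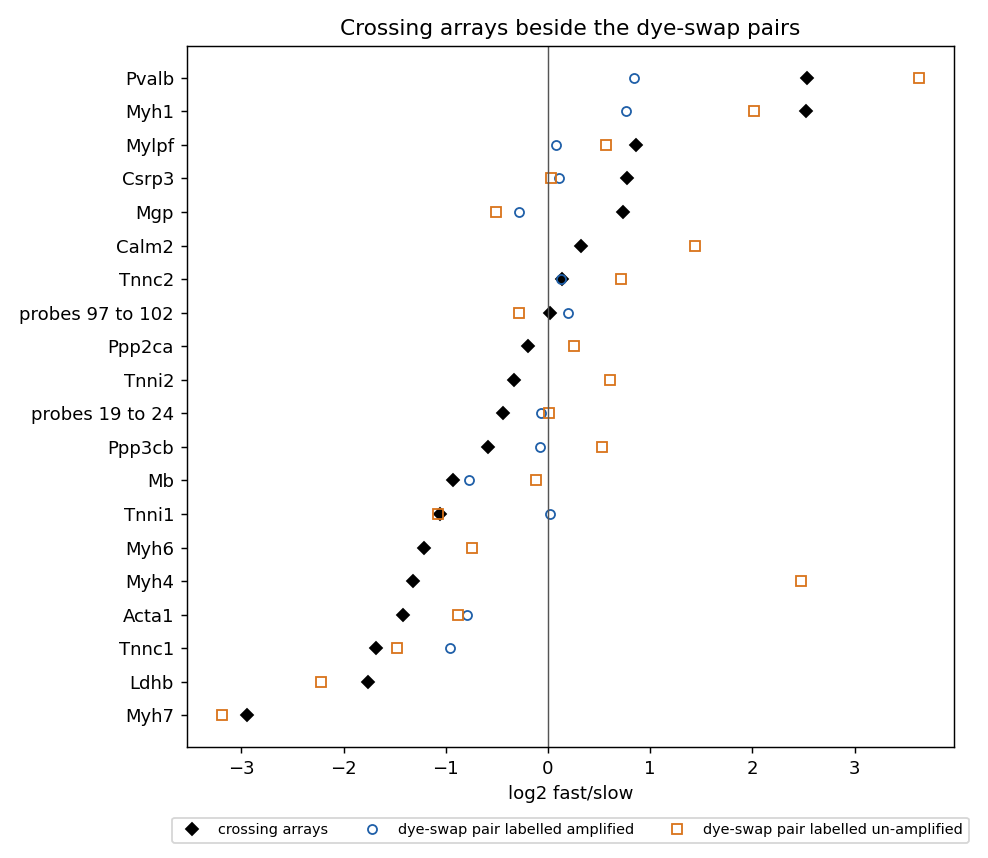
Log2 fast over slow (x axis) of each feature (y axis) on the crossing arrays (diamonds) and in the dye-swap pairs labelled amplified (open circles) and un-amplified (open squares). Myh1, Pvalb, Tnnc1 and Acta1 keep their side of 0 in all 3, and Myh4, at -1.32 on the crossing arrays, lies at 2.47 in the pair labelled un-amplified. The Acta1 square is the mean of arrays at -2.17 and 0.42.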

How the data were processed

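Log2 ratios of 2 crossing arrays were computed from the deposited integral intensity of Cy3 and Cy5 per spot; the software that made them and any background subtraction are not given in the sources used here. Further deposited sheets also gave a background intensity, the fraction of unsaturated pixels, a ratio of median pixels and a letter for usable spots, which is a code as deposited and no measure. The series table held a Cy3 over Cy5 ratio to which the authors had applied 1 factor per array; all 115 and 100 of its values for the crossing arrays matched the integrals. The matches over the loop arrays fixed the direction and gave a grid place to 131 of 132 probes. A deposited list of spot order also placed 130 of these, 129 of them alike, and the list was followed where they differed. The last probe, of Pvalb, was placed by elimination. Dye-swap arrays gave median pixel intensity from ImaGene, per the file headers, and were corrected by normexp with an offset of 50. For 1 of them the dye in the header's image name differed from that in the file name, and the header was followed.

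Spots usable in both channels were averaged as log2 ratios and each array was centred on its median feature. Of these, 1 spot on each crossing array held saturated pixels and was kept. Tests used limma 3.58.1 in R 4.3.3, two-sided, with Benjamini-Hochberg adjustment over all features with every array. Only the muscle term of the loop fit was tried on simulated data, and the comparison with the dye swap was not. The simulated array noise was smaller than the pooled residual SD of 1.03 in the data. That trial therefore gives no error rate for these data. All features are named, as fixed for arrays of few genes. The members and lists were chosen with earlier results of these data known. Symbols matched RefSeq (GRCm38.p6) for 19 of 20 named features. The closing section gives the alternatives; those with the grid row as a term and with features under 3 spots left out, and those of the amplification term, were chosen after seeing the data.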

Additional observations from a re-analysis of the deposited data

Results flagged for a closer look

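Spots without a probe gave a bright signal in Cy3 on both crossing arrays. In rows 7 to 9 of the first column their Cy3 integrals were between 3487260 and 4096095 on the first array and between 6002334 and 6673655 on the second, against medians of 605959 and 840504 over usable probe spots. Their Cy3 over Cy5 ratio reached 71.4 on the first array and 145 on the second, above the highest of any probe spot (7.75 and 23.7). They enter no result.

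Both crossing arrays placed Myh4 on the slow side and Mgp on the fast side, opposite to both arrays of the dye-swap pair labelled un-amplified. Myh4 was at -1.32 on the crossing arrays and at 2.94 and 2.00 on those dye-swap arrays. Mgp was at 0.73 on the crossing arrays and at -0.13 and -0.89 on those dye-swap arrays, and it was at -0.30 without the first crossing array. For Mgp the test against the mean of both dye-swap pairs gave a limma adjusted p of 0.725. The difference of Myh4 was not tested, since it had no value in the other pair. Tnni2, at -0.33 on the crossing arrays and at 0.17 and 1.04 on those dye-swap arrays, had crossing arrays on opposite sides.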

How the results depend on the processing

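Of 269 muscle differences recomputed for single features, 257 kept their sign, and no feature at 2-fold or more reversed. Many of the 269 repeat the main value, so the count overstates the stability. Leaving out dim features, features under 3 spots or integrals at or below 0 could not change a value that remained. Leaving out saturated spots or using the series table, which holds the same integrals times a factor, changed almost none. The count of features at least 2-fold lower in fast muscle was 7, and 4 with marked spots kept. Leaving out 1 crossing array gave 2 to 4 features at least 2-fold higher and 4 to 10 at least 2-fold lower. The limma count of 3 called features became 0 without centring, after loess (span 0.3), with marked spots kept, with own variances and without either crossing array (0 to 0). Without centring every muscle difference moved by 0.19. The 9 calls of the amplification term were 4 without centring, 0 after loess and with own variances, 2 with marked spots kept and 1 without either crossing array (1 to 1). The shared ratio was at least 2-fold above 0 in 3 features after loess, against 8, and at least 2-fold below in 2 with dim features left out, against 4. The other alternatives (median pixel ratio, median of spots, saturated spots or dim features left out, the series table, the grid row as a term, features under 3 spots left out) kept the 3 calls, and leaving out integrals at or below 0 changed nothing, since no usable spot had one. The dye term and the difference from the dye swap had 0 calls throughout. With the dyes of the file names, 2 features of the dye-swap comparison had an unadjusted p under 0.05 in limma (lowest adjusted p 0.183). With marked spots kept, Myh7 was at -1.67 and Ldhb at -0.78. In that setting an integral at or below 0 was replaced by the lowest usable integral of its channel and array. Ratios of such marked spots are therefore set by the replacement and are not measured. How far the replacement moved each value was not tested. Dim Cy3 signal limits Pln, Myh4 and Myh6, and 1 array per orientation limits every value. It also limits the Myh7 ratio on the second array, where its Cy3 integral was 1.54 times background, against 1.44 for Myh4.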
